A study of Rattus norvegicus with 8 samples.

Results

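Caspases and the nucleases they release carry out apoptosis, and the 8 genes described here encode an apoptosome scaffold, 4 caspases and 3 nuclease components: Apaf1, Casp9, Casp2, Casp8, Casp6, Dffa, Dffb and Aen. They were chosen by symbol from the table of estimated counts, where each symbol had 1 row, and are 8 of 24059 genes. All 8 passed the filter on low counts, which 16976 genes passed. Their transcripts were measured by polyA-enriched RNA sequencing of GFP-positive germ cells from testes of prepubertal transgenic Sprague-Dawley rats (GCS-EGFP). The doxorubicin group was 4 rats (2, 3, 6 and 8) given 5 mg/kg doxorubicin on postnatal day 6, and the control group was 4 rats (1, 4, 5 and 9) given vehicle on the same day. Cells of both groups were collected 24 h later, 1 library per rat, and all 8 rats carried the reporter transgene. The vehicle and the promoter of the reporter are not stated in the labels.

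In the mitochondrial pathway of cell death, cytochrome c released from mitochondria binds Apaf1, which assembles into the apoptosome and activates the initiator caspase 9. Initiators then cleave executioner caspases, which in turn cut many proteins, among them the inhibitor that holds the nuclease Dffb silent, so that chromatin is cleaved between nucleosomes. Most of this machinery is present as inactive protein before a death signal, and transcription of a few parts can be raised by p53 after DNA damage. Spermatogonia, the dividing germ cells of the testis, are known to die by apoptosis after DNA damage. Doxorubicin is an anthracycline that traps topoisomerase II on DNA and leaves strand breaks.

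Of the 8 genes, 1 passed the edgeR test as higher after doxorubicin, as did 0.106% of all genes tested. That gene, Aen, had a fold change of 2.07, and 10 of 16 alternative settings kept its call. The other 7 did not pass the test, with fold changes of 1 to 1.09. The question the comparison addresses is which transcripts of these germ cells change within a day of the drug.

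The promoter of Aen is shown because it is the promoter of the 1 member that rose, and because Aen is known as a p53 target. It spans chr1:142224283-142224582 on the plus strand of GRCr8, from 250 bases before to 50 bases after the RefSeq start. The capitals mark the 20 bases that come closest to a p53 element, taken as a pair of p53 consensus half-sites of 10 bases each with no spacer.
Aen promoter: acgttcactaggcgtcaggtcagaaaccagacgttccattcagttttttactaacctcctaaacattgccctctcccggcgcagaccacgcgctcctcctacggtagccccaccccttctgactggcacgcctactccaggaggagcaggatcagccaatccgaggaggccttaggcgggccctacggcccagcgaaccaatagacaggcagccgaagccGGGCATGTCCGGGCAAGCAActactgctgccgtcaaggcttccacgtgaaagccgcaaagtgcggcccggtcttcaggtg

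The capitalised stretch lies at positions -30 to -11 from the start, and its first 10 bases match the p53 half-site consensus at every position. Over the whole 20 bases it has 2 mismatches, both at its 3′ end. The consensus equals its own reverse complement, so 1 pass reads both strands. Of 33465 RefSeq promoters of the same length, 7.98% held an exact half-site and 0.873% held a 20-base window with at most 2 mismatches. Promoters were found for 7 of the 8 genes (all except Casp8), and Aen was the 1 of the 7 with an exact half-site. The best windows of Aen and of the 3 genes closest to it in this respect are given next, with matched bases in capitals and mismatched bases in lower case, and with the first of 2 equally good windows for Casp2 and for Apaf1.
Aen: GGGCATGTCCGGGCAAGCaa
Casp2: cGACAAGTgTGcGCTTGCgC
Dffa: GGcaAAGCTTAGGgAAGCCg
Apaf1: GAGgAcGCTCAAcCAgGgCT

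Casp2 (chr4:72116107-72116406, plus strand of GRCr8) and Dffa (chr5:164823557-164823856, plus strand) had 4 mismatches, a count that 29.7% of promoters matched or bettered. Apaf1 (chr7:27466723-27467022, minus strand) had 5, which 76.2% of promoters matched or bettered, and the remaining 3 genes had 6. A match describes letters in this window, not a bound site, and windows outside these 300 bases were not searched.

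**Figure D1:**
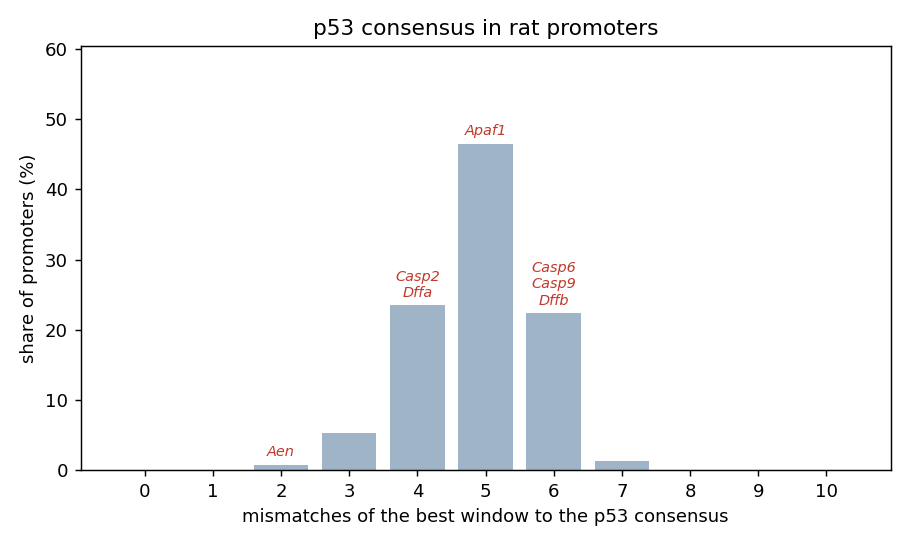
Share of 33465 rat RefSeq promoters (vertical axis, percent) by the number of mismatches between their best 20-base window and the paired p53 half-site consensus (horizontal axis). Gene names mark the bin of each of the 7 genes with a promoter, and Aen, at 2 mismatches, sits in the low tail.

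Libraries held 41253848 to 58871101 estimated counts, so that 1 CPM (counts-per-million) equals 41.3 counts in the smallest library before scaling. The CPM values given here are scaled by TMM factors. CPM is not corrected for transcript length, so levels are compared between rats within a gene and not between genes. The cells carried germ cell markers, as labelled, with 2141 to 2208.1 CPM summed over 10 germ cell genes in doxorubicin libraries and 2113.7 to 2198.1 CPM in control libraries. Summed markers of other cells overlapped between the groups in each list. The 8 Sertoli genes summed to 68.5 to 81.4 CPM in doxorubicin and 70.6 to 77.8 CPM in control libraries. For 6 macrophage and leukocyte genes the sums were 4.51 to 5.22 CPM in doxorubicin and 3.8 to 4.66 CPM in control libraries. Summed Leydig genes reached at most 9.71 CPM, peritubular and stromal genes 51.7 CPM, and endothelial genes 95.1 CPM (mostly Pecam1, at 76.5 ± 5.88 CPM in doxorubicin and 70.7 ± 5.23 CPM in control libraries). For 5 erythroid genes the sums were 8.18 to 13.7 CPM in doxorubicin and 6.33 to 8.2 CPM in control libraries. Slc4a1, the red cell anion exchanger, was the 1 marker of all lists that passed edgeR, which called 0.106% of all tested genes higher. Slc4a1 averaged 7.48 ± 2.21 CPM in doxorubicin and 3.09 ± 0.347 CPM in control libraries (SD, n = 4 each) and on average made up most of the doxorubicin sums. The globin genes stood the other way, with Hbb at 0.688 ± 0.336 CPM in doxorubicin and 1.55 ± 0.266 CPM in control libraries (adjusted p = 0.192 in edgeR and 0.0243 in DESeq2). Hba-a1 differed by -0.88 ± 0.22 on the log2 scale (SE, adjusted p = 0.206 in edgeR and 0.0382 in DESeq2). Neither globin overlapped between the groups, and 1.95% of tested genes likewise had every doxorubicin rat lower. Alas2, which starts heme synthesis in red cell precursors, averaged 0.278 CPM in doxorubicin and 0.409 CPM in control libraries, with overlap. In no list were any markers at 0 in all 8 libraries, and the part of these cells in the results was not tested. In bulk RNA, fewer cells of a type and less RNA per cell cannot be told apart.

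Aen (ENSRNOG00000018421.7) encodes an apoptosis-enhancing exonuclease that degrades nucleic acid in dying cells. It measured 124.7, 84.2, 83.3 and 88.6 CPM in doxorubicin rats 2, 3, 6 and 8, against 47.6, 46.6, 43.8 and 46.2 CPM in control rats 1, 4, 5 and 9. Every doxorubicin rat lay above every control rat, and rat 2 stood above the other doxorubicin rats, which were close together. Aen averaged 95.2 ± 19.8 CPM in doxorubicin and 46.1 ± 1.62 CPM in control libraries (SD, n = 4 each). The log2 fold change was 1.05 ± 0.13 (SE; 95% interval 0.76 to 1.34), and the Benjamini-Hochberg adjusted p was 0.0411 by edgeR's quasi-likelihood test. Over all genes, 0.106% of those tested were higher at this threshold, and Aen ranked 10 by p. The same separation, with every doxorubicin rat above every control rat, was seen in 2.77% of tested genes.

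The edgeR call of Aen depended on single libraries. Without doxorubicin rat 2 the log2 fold change was 0.89 and the adjusted p was 5.57e-07. Without control rat 1, 4, 5 or 9, or without doxorubicin rat 8, the log2 fold change stayed between 1.02 and 1.08, but the edgeR adjusted p was 0.179, 0.146, 0.213, 0.197 and 0.0974. With no low-count filter it was 0.0642. DESeq2, which called 0.897% of genes higher, gave Aen an adjusted p of 2.73e-17, and limma-voom gave 0.00975. A two-sided exact permutation test of the log2 CPM values over the 8 libraries gave p = 0.0286, the smallest that 4 against 4 can give.

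**Figure D2:**
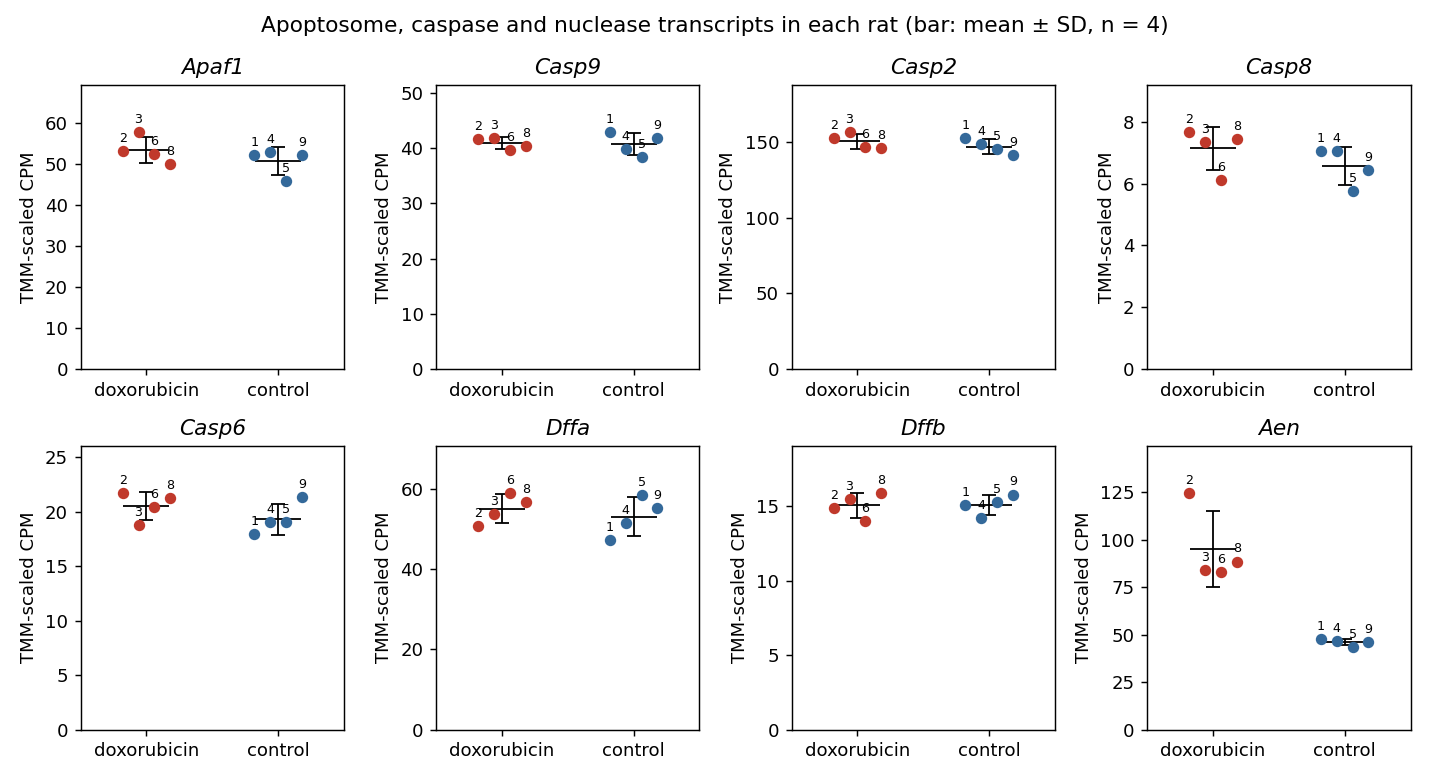
TMM-scaled CPM (vertical axis, from 0) of the 8 genes in each rat, numbered, with doxorubicin rats in red and control rats in blue, and bars for the mean ± SD of 4 rats. Aen separates the groups, at 83.3 to 124.7 CPM in doxorubicin rats against 43.8 to 47.6 CPM in control rats, while the other 7 genes overlap.

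Dffb and Dffa form the other nuclease pair. Dffb (ENSRNOG00000025030.6) is the caspase-activated DNase that cuts chromatin between nucleosomes. It measured 14.9, 15.5, 14 and 15.9 CPM in doxorubicin rats 2, 3, 6 and 8, against 15.1, 14.2, 15.3 and 15.8 CPM in control rats 1, 4, 5 and 9. The groups covered nearly the same range, and the fold change was 1, with a 95% interval of 0.904 to 1.11 (edgeR adjusted p = 1). Dffa (ENSRNOG00000013603.8), which encodes the chaperone and inhibitor of Dffb, measured 50.6, 53.7, 58.9 and 56.7 CPM in the doxorubicin rats, against 47.2, 51.4, 58.3 and 55.1 CPM in the control rats. The groups overlapped, with the lowest value in control rat 1 and the highest in doxorubicin rat 6. Its log2 fold change was 0.05 ± 0.07 (edgeR adjusted p = 0.958). Within a library, the log2 ratio of Dffb to Dffa was -1.87 ± 0.14 in doxorubicin and -1.81 ± 0.12 in control rats (SD, n = 4 each), with overlapping ranges.

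Apaf1 and Casp9 encode the apoptosome itself. Apaf1 (ENSRNOG00000008022.7), the scaffold, measured 53.2, 57.7, 52.4 and 50 CPM in doxorubicin rats 2, 3, 6 and 8, against 52.1, 53, 45.7 and 52.2 CPM in control rats 1, 4, 5 and 9. The groups overlapped, with control rat 5 below all others. The log2 fold change was 0.07 ± 0.06, with a 95% interval of -0.06 to 0.2 (edgeR adjusted p = 0.918). Doxorubicin rat 2, the highest for Aen, stood at 53.2 CPM for Apaf1, just above every control rat and below doxorubicin rat 3. Apaf1 is known as a p53 target in other settings, and any role of p53 here was not tested.

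Casp9 (ENSRNOG00000012944.8), the initiator that the apoptosome activates, measured 41.7, 41.9, 39.7 and 40.4 CPM in the doxorubicin rats, against 42.9, 39.9, 38.4 and 41.9 CPM in the control rats. All doxorubicin values lay within the control range. The log2 fold change was 0.01 ± 0.05, and the 95% interval of the fold change ran from 0.933 to 1.08 (edgeR adjusted p = 0.996). In RefSeq its gene overlaps Cela2a, a pancreatic elastase gene. The log2 ratio of Casp9 to Apaf1 within a library was -0.38 ± 0.06 in doxorubicin and -0.31 ± 0.07 in control rats, also overlapping.

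Casp2 and Casp8 encode initiators that work on other platforms. Casp2 (ENSRNOG00000016707.8), activated on the PIDDosome in response to DNA damage and extra centrosomes, measured 152.8, 156.4, 146.5 and 145.8 CPM in doxorubicin rats 2, 3, 6 and 8, against 152.6, 148.4, 145.4 and 141.1 CPM in control rats 1, 4, 5 and 9. The groups overlapped, and of the 8 genes Casp2 had the narrowest interval, with a fold change between 0.967 and 1.08 (edgeR adjusted p = 0.95). In RefSeq its gene overlaps 1 uncharacterised locus. Casp8 (ENSRNOG00000012331.7), the initiator of death receptor signalling, measured 7.66, 7.34, 6.1 and 7.44 CPM in the doxorubicin rats, against 7.04, 7.05, 5.76 and 6.45 CPM in the control rats. Rat 6 was low among the doxorubicin rats and rat 5 among the control rats, and the groups overlapped. Casp8 had the fewest counts of the 8 genes, from 256 to 443.3 per library, and the widest interval among the 7 genes that did not pass, with a fold change between 0.928 and 1.27 (edgeR adjusted p = 0.925). In RefSeq the span of its gene overlaps that of Cflar, which encodes a catalytically inactive relative of Casp8. Strand and exons were not compared, so whether the 2 genes share reads is not known.

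Casp6 (ENSRNOG00000052613.2) is an executioner caspase that cleaves nuclear lamins. It measured 21.7, 18.8, 20.4 and 21.2 CPM in doxorubicin rats 2, 3, 6 and 8, against 17.9, 19, 19 and 21.3 CPM in control rats 1, 4, 5 and 9. The groups overlapped because control rat 9 reached the upper doxorubicin values and doxorubicin rat 3 the middle control values. The log2 fold change was 0.09 ± 0.07 (95% interval -0.06 to 0.24; edgeR adjusted p = 0.902). RefSeq lists 3 pseudogenes named after Casp6, though its estimated counts were whole numbers in every library, which held for none of the other 7 genes.

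Control rats varied little in the 8 genes. The coefficient of variation in controls ran from 3.3% for Casp2 to 9.25% for Casp8, against 1.14% and 5.4% from counting error alone. In doxorubicin rats it was 20.8% for Aen and at most 9.85% for any of the other 7. The 95% interval of the Aen log2 fold change began at 0.76, above the upper ends of all 7 others, the highest of which was 0.35. The median log2 fold change of the 8 genes was 0.06, beside -0.00466 over all genes tested. Without adjustment, 1 of the 8 was higher at a p under 0.05 in edgeR, as were 4.19% of all tested genes.

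The profile of Aen over the 8 libraries was most like those of Cdkn1a, Phlda3, Ccng1, Plk2 and Abcb1b. They were ranked among 13567 tested genes with a symbol and at least 1 CPM on average. Pearson's r of log2 CPM with Aen was 0.996, 0.996, 0.995, 0.995 and 0.993 for these genes, over 8 libraries that fall into the 2 treatment groups and share the same scaling. The values describe likeness and were not tested. Cdkn1a encodes the cell cycle inhibitor p21, and it measured 36, 15, 15.1 and 16.9 CPM in doxorubicin rats 2, 3, 6 and 8, against 6.14, 5.86, 5.37 and 5.56 CPM in control rats 1, 4, 5 and 9. As with Aen, rat 2 stood highest and rat 8 came next. On the log2 scale, rat 2 exceeded the mean of the other doxorubicin rats by 0.55 for Aen and by 1.2 for Cdkn1a, but by -0.16 to 0.14 for the 7 remaining genes of the set. The other doxorubicin rats exceeded the control mean by 0.89 for Aen and by 0 to 0.09 for those 7 genes. Leaving out rat 2, r with Aen was 0.993 to 0.999 for the 5 genes. They were picked for their likeness over these same libraries, which without rat 2 still fall into the 2 groups. That r is therefore no separate evidence.

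**Figure D3:**
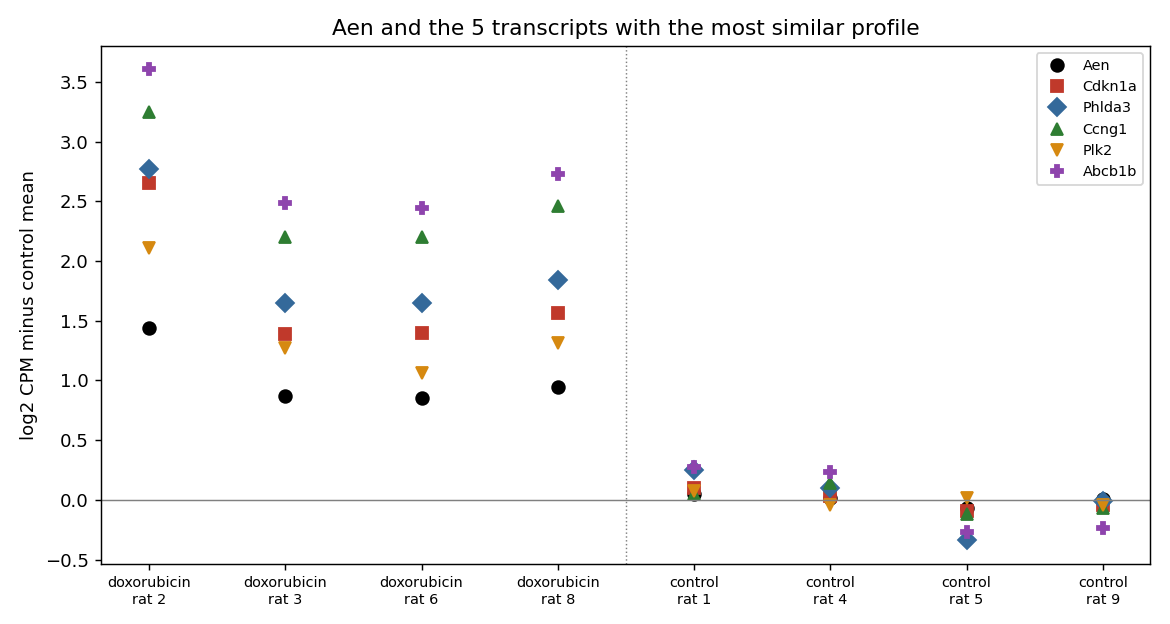
Log2 CPM minus the mean of the 4 control rats (vertical axis) for Aen and the 5 transcripts with the most similar profile, in each of the 8 rats (horizontal axis, doxorubicin rats left of control rats). All 6 are highest in doxorubicin rat 2, where Cdkn1a reached 36 CPM and Aen 124.7 CPM.

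Other genes of the death pathway were described from 5 further lists, which held 45 tested genes. Of these, 0 passed edgeR or DESeq2 over all genes, where edgeR called 0.106% of tested genes higher and DESeq2 0.897%. A count of 0 is near those shares. Log2 fold changes were positive for 14 and negative for 31, with a median of -0.02, beside -0.00466 over all tested genes. The split of signs over all genes was not counted. Without adjustment, 3 were higher and 1 was lower at a p under 0.05 in edgeR, beside 4.19% and 2.56% of all tested genes.

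Of 4 further caspases, Casp4 was the 1 with enough counts to test. Casp4, of the inflammatory caspase group, measured 0.191 to 0.329 CPM in doxorubicin and 0.168 to 0.281 CPM in control libraries, and the groups overlapped (edgeR adjusted p = 0.942). Casp1 and Casp12, of the same group, had at most 14.9 counts in any library.

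Upstream of the caspases, 0 of 10 mitochondrial release and apoptosome genes passed edgeR or DESeq2 (0 also at an unadjusted p below 0.05), with log2 fold changes of -0.12 to 0.04. The lowest 2 p-values were those of Cycs, somatic cytochrome c (log2 fold change -0.12 ± 0.06, edgeR adjusted p = 0.793), and Htra2, a mitochondrial protease that antagonises inhibitors of apoptosis (-0.07 ± 0.04, edgeR adjusted p = 0.847). Among 7 genes of the caspase 2 and caspase 8 platforms, 0 passed edgeR or DESeq2 and 1 was higher at an unadjusted p below 0.05. That gene was Pidd1, the scaffold that activates caspase 2 and a known p53 target. Pidd1 measured 25.2, 18.3, 17.7 and 18.2 CPM in doxorubicin rats 2, 3, 6 and 8, against 16.6, 16.4, 13.4 and 15 CPM in control rats 1, 4, 5 and 9. The groups did not overlap, and rat 2 was again highest. Such separation, with doxorubicin rats higher, was seen in 2.77% of tested genes. The log2 fold change was 0.37 ± 0.12, and the adjusted p was 0.434 in edgeR and 0.132 in DESeq2. Without doxorubicin rat 2 the log2 fold change was 0.23. Casp8ap2, a large nuclear partner of caspase 8 that also serves histone mRNA processing, stood at -0.08 ± 0.05 on the same scale (edgeR adjusted p = 0.835).

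Of 13 other nucleases and relatives, 0 passed edgeR or DESeq2 and 1 was higher at an unadjusted p below 0.05. Isg20, an exonuclease of the same family as Aen, measured 12.9, 9.49, 8.6 and 9.9 CPM in doxorubicin rats 2, 3, 6 and 8, against 8.39, 8.47, 8.51 and 7.7 CPM in control rats 1, 4, 5 and 9. The groups were separated by a narrow gap, and 2.77% of tested genes likewise had every doxorubicin rat higher. The difference was 0.31 ± 0.12 log2 units (edgeR adjusted p = 0.582), or 0.18 without doxorubicin rat 2. Isg20l2, a nucleolar relative, had -0.06 ± 0.04 (edgeR adjusted p = 0.885). Endog, the mitochondrial endonuclease that can cut DNA without caspases, stood at 3.16 CPM in doxorubicin and 3.52 CPM in control libraries on average, and its interval reached from -0.46 to 0.15 on the log2 scale.

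Among 14 caspase substrates, 0 passed edgeR or DESeq2, while 1 was lower and 1 higher at a p under 0.05 without adjustment. Lmnb2, which encodes lamin B2, measured 43.1 to 47.3 CPM in doxorubicin and 47.8 to 49.3 CPM in control rats. All doxorubicin rats lay below all control rats, which held for 1.95% of tested genes, and the log2 difference was -0.13 ± 0.04 (edgeR adjusted p = 0.473). Gsdmd, a pore-forming protein of pyroptosis, measured 4.17 to 6.45 CPM in doxorubicin and 3.45 to 4.8 CPM in control rats, with overlap (log2 fold change 0.36 ± 0.15, edgeR adjusted p = 0.666). Without doxorubicin rat 2 it was 0.23 on the log2 scale. Parp1, the DNA break sensor that executioner caspases cut, stood at -0.02 on the log2 scale (95% interval -0.09 to 0.06).

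**Figure D4:**
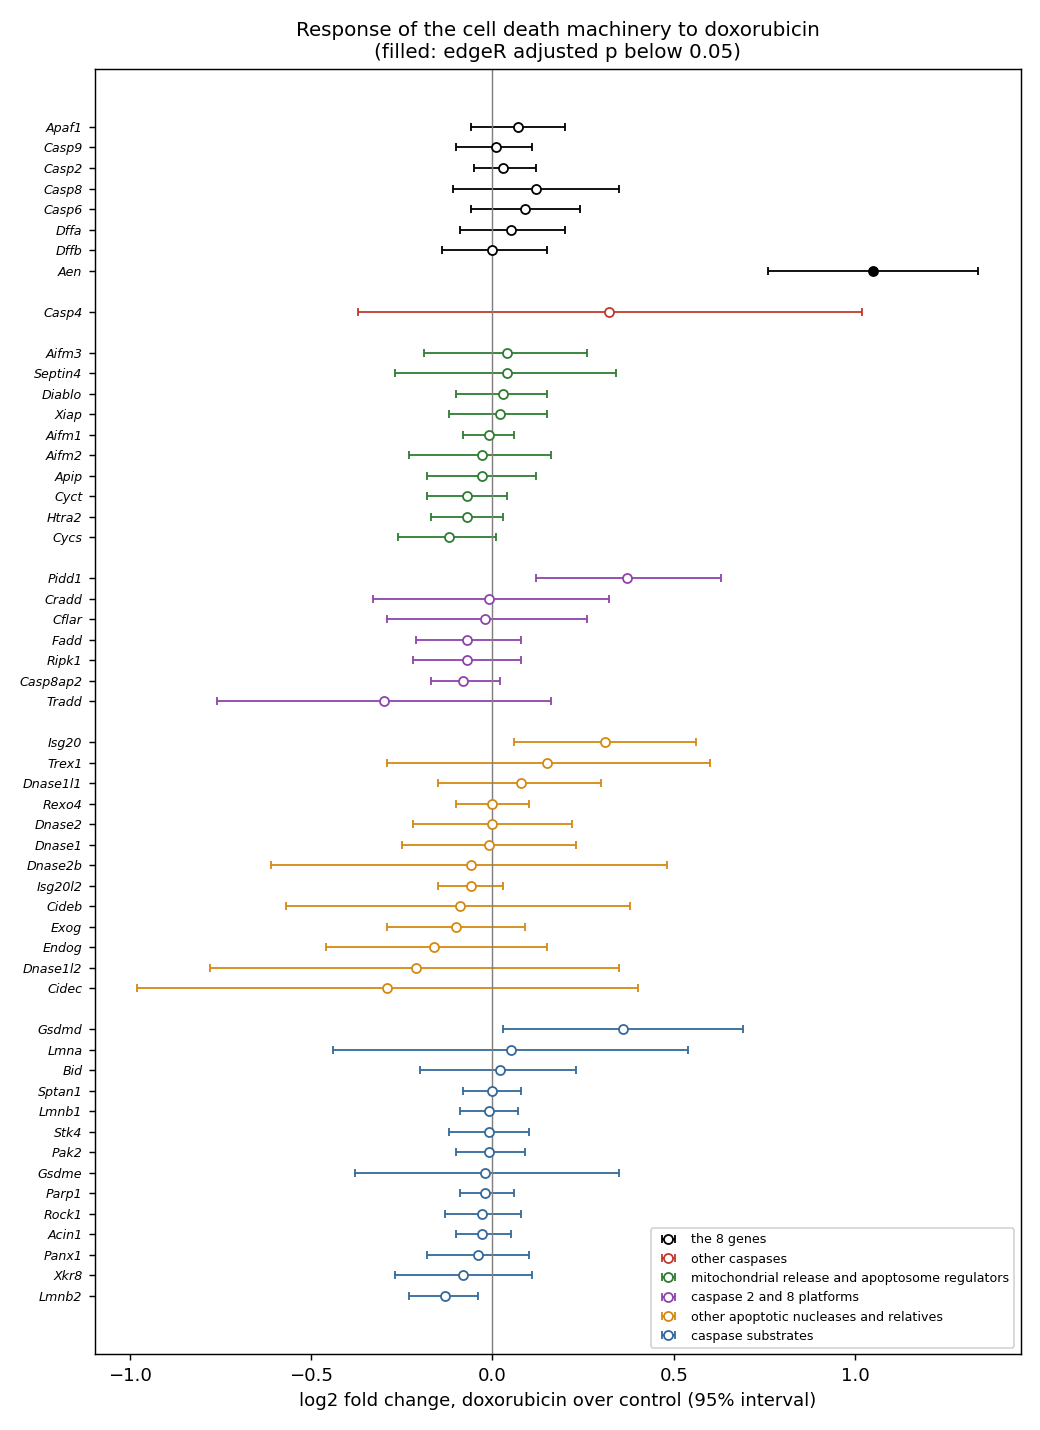
Log2 fold change of doxorubicin over control with its 95% interval (horizontal axis) for the 8 genes and the 45 tested genes of the 5 further lists, colored by list. The filled point, Aen at 1.05, is the 1 that passed edgeR over all genes, and Pidd1 at 0.37 is the next highest.

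A last list held 7 known p53 targets that are in none of the lists above. All 7 had positive log2 fold changes, from 0.28 for Mdm2 to 3.1 for Bbc3. In edgeR 2 passed the threshold (Eda2r and Ccng1), and in DESeq2 6 did (those with Cdkn1a, Bax, Bbc3 and Fas). Over all genes, edgeR called 0.106% of those tested higher, and DESeq2 called 0.897%. Under 16 alternative settings, Eda2r was called in all 16 and Ccng1 in 9. Aen, at 1.05, lay between Bax (0.4 ± 0.1; edgeR adjusted p = 0.217) and Cdkn1a (1.86 ± 0.31; edgeR adjusted p = 0.107). Bbc3 and Bax, which act on mitochondria ahead of the apoptosome, measured 11.2 and 75.5 CPM on average in doxorubicin libraries, against 1.29 and 57.1 CPM in control libraries. These genes were listed with earlier results of these data known, so their direction is no separate evidence.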

How the data were processed

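PolyA-enriched libraries were made from PicoPure-isolated RNA, per the labels' protocols. Tools in the submitters' processing notes, with no role or order, are kallisto 0.48.0, featureCounts, fastp 0.23.2, Trimmomatic, DESeq2 1.40.2, FastQC 0.11.9 and MultiQC 1.12, with build rn6. The gene identifiers may come from a later annotation than rn6, which was not checked. The authors deposited estimated counts per gene, not normalized; 32.5% to 33.6% of values per library were not whole (tolerance 1e-06), and all were rounded. Strand setting and the division of shared reads are not stated.

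Genes passing filterByExpr were scaled by TMM and tested in R 4.3.3 with edgeR 4.0.16 (robust quasi-likelihood, Benjamini-Hochberg over 16976 genes, threshold 0.05). Alternatives were DESeq2 1.42.0, limma 3.58.1 (voom), other scalings and filters, a non-robust fit, a term for rat numbers up to 4 against 5 and above, and leaving out each library. Log2 CPM used a prior count of 2. No 2 libraries of a group agreed within sampling noise (chi-square per degree of freedom 6.22 or more, genes with at least 20 counts). The test was checked on simulated counts that gave every gene the same dispersion. That check did not cover genes in which a single rat stands apart. Named genes were the 8, genes of the further lists called by edgeR or DESeq2 (otherwise the 2 smallest p per list), and the 5 profiles most like a called gene; Casp1, Casp12, Endog, Parp1 and Mdm2 were named after their values were seen. Some genes of the further lists are not reported here. Genes and lists were chosen with earlier results of these data known. RefSeq (GRCr8) gave promoters and neighbouring genes.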

Additional observations from a re-analysis of the deposited data

Results flagged for a closer look

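Among 46 groups of 4 libraries (the 23 genes examined in each group), 8 held a value well apart from the other 3. By chance about 1 group in 20 does, which would be 2.3 groups if they were independent. They are not, because the 23 genes share the same libraries and some were named for their p-values. Of the 8, 5 were doxorubicin rat 2, each time above the other doxorubicin rats. Aen stood at 124.7 CPM there, against 83.3 to 88.6 CPM in the others, Pidd1 at 25.2 (17.7 to 18.3), Cdkn1a at 36 (15 to 16.9), Bax at 90.5 (69.4 to 71.5) and Bbc3 at 19.4 CPM (7.89 to 9.26). The remaining 3 were low control values: Apaf1 at 45.7 CPM in control rat 5 (52.1 to 53 in the other controls), Isg20 at 7.7 CPM in control rat 9 (8.39 to 8.51) and Lmnb2 at 47.8 CPM in control rat 4 (49 to 49.3).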

How the results depend on the processing

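Over 16 alternatives the log2 fold change of Aen stayed between 0.89 and 1.11, and 10 of the 16 kept its call. The number of the 8 genes called was 1, but 0 with no low-count filter, and 0 to 1 when single libraries were left out. The count over all genes was 19, with 170 by DESeq2, 53 by a fit that was not robust and 61 with a term for the rat-number sets, and 1 to 62 when single libraries were left out. Of the 45 further pathway genes 0 were called under every setting; the filter at a mean of 1 CPM removes the lowest of them, Casp4 included, which therefore has no value there. Casp9 ran from -0.02 (without control rat 5) to 0.03 when single libraries were left out, and was never called. The cause of these shifts was not tested, though leaving out a library leaves fewer samples. No paired analysis was possible because the groups share no rat number. Among the 8 genes, Casp8, at 256 counts in its smallest library, is the one whose precision depth limits most; of the further genes, Casp4 had as few as 7 counts.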

Other observations

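Of the genes too low to test, Casp14, an epidermal caspase, had 0 counts in all 4 control libraries and 1 to 8 counts in each doxorubicin library (13 in all). Cidea, a relative of the Dffa and Dffb amino-terminal domain, had 7 to 13 counts per doxorubicin library and 2 to 9 counts per control library. Both were singled out after their values were seen, and neither was tested.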
